A study of Homo sapiens with 6 samples.

Results

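ATP-binding cassette (ABC) proteins were examined in A2780 ovarian carcinoma cells, which come from an established human line, and in a clone of the same cells labelled CDK12 KO. The genes were taken by symbol: every protein-coding gene whose symbol is ABC, a letter from A to G and a number. All 45 such genes of GENCODE release 44 were among the 60483 genes with counts, and 28 of the 45 had enough reads to be tested along with the 16198 genes tested in all. CDK12 is a kinase that phosphorylates RNA polymerase II and supports the transcription of long genes and of DNA repair genes. Total RNA was sequenced as single-end reads of 75 bases in 6 libraries.

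Both groups were A2780 cells grown in RPMI medium with serum, and no drug treatment is given for any library. WT was the parental line, and CDK12 KO was 1 homozygous clone, in which repeated CRISPR/Cas9 transfection had targeted the first exon of CDK12. Each genotype had 3 libraries. The labels do not say whether these came from separate cultures, so the p-values measure only the spread between these libraries, which may be technical. With 1 clone against its parental line, the loss of CDK12 and any other difference between the clone and the line cannot be told apart. Among such differences, the study reports a higher DNA content and a higher chromosome number in the clone. Levels below are relative to the total of each library, so they do not give RNA per cell.

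ABC proteins bind and split ATP, and most of them use that energy to move a substrate across a membrane. Several members of subfamilies B, C and G export drugs or their conjugates and are known from cancers that resist chemotherapy. ABCB1 (P-glycoprotein) is the classic pump for taxanes, and ABCG2 and the ABCC proteins carry many other drugs. Most members of subfamily A, and part of B and G, move lipids and sterols. Subfamily D and part of B serve peroxisomes, mitochondria and lysosomes, and subfamilies E and F have no membrane domain and act on ribosomes and translation.

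Of the 28 tested ABC genes, 1 rose and 6 fell in KO. The gene that rose was ABCC2, a drug and conjugate exporter, and those that fell were the pumps ABCC6 and ABCG2, the lipid transporters ABCA1, ABCA3 and ABCG4, and the channel regulator ABCC8. A gene was called at an adjusted p under 0.05 in edgeR's quasi-likelihood test and a log2 fold change (KO over WT) above 1 or below -1, and 21 tested ABC genes met this in neither direction. Among all tested genes, 8.30% were called higher in KO and 7.73% lower, against 3.57% and 21.4% of the tested ABC genes. The test was of single genes, and no test was made of the family as a group. The shares depend on the filter, since ABCC6 and ABCG2 had enough reads for testing in WT alone. With at least 10 counts in every library, 25 ABC genes were tested, and 1 was called higher and 4 lower. Without a filter, 42 were tested, and 4 were called higher and 8 lower.

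By the adjusted p with no fold threshold, 6 ABC genes were higher and 14 lower in KO, and 8 were neither. The same rule took 31.9% of all tested genes as higher and 32.0% as lower. The 3 KO libraries did not overlap the 3 WT libraries in 20 of the 28 ABC genes, a share of 71.4%, beside 66.4% of all tested genes. On the log2 scale the 28 fold changes had a median of -0.19, with 11 above 0 and 17 below 0, beside a median of 0.00044 over all tested genes. The range of the members ran from -5.46 for ABCC6 to 2.90 for ABCC2.

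**Figure D1:**
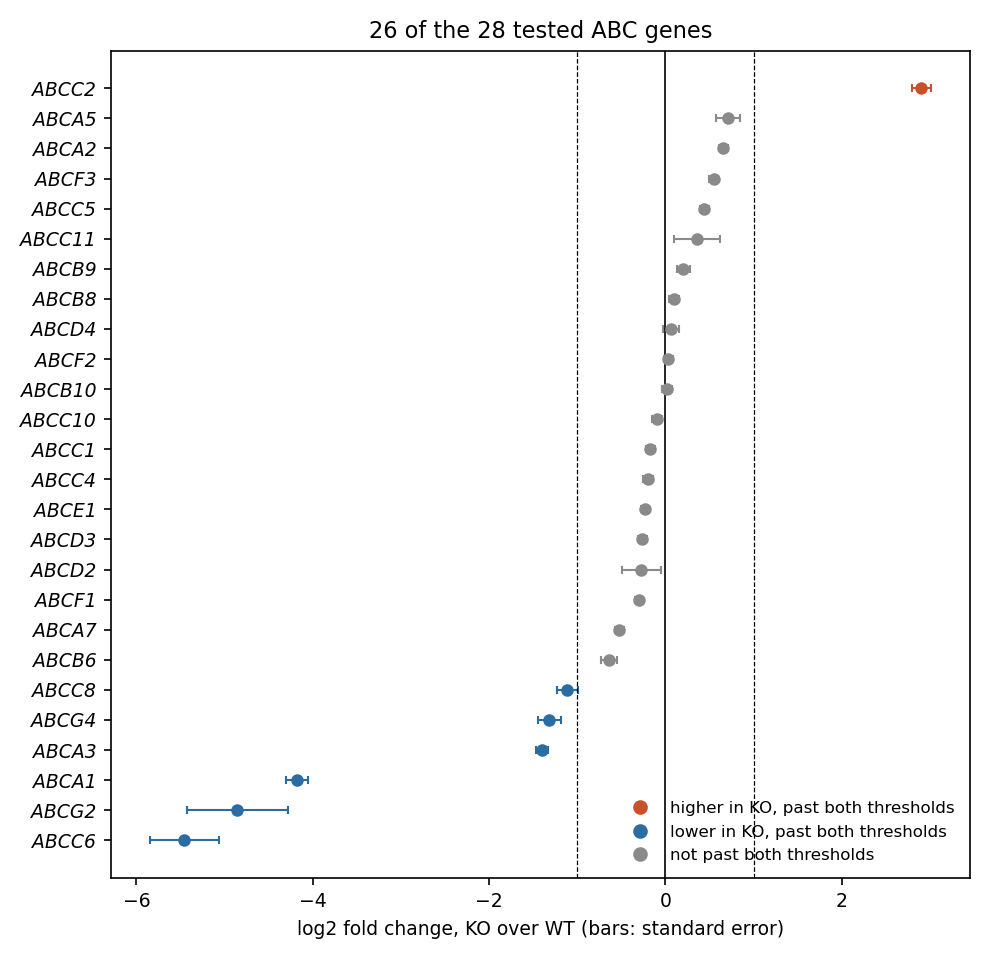
Log2 fold change of 26 of the 28 tested ABC genes, KO over WT, with its standard error (3 libraries per group). Dashed lines mark the fold thresholds at -1 and 1. ABCC2 at 2.90 stands alone on the right, and ABCC6, ABCG2 and ABCA1 lie below -4 on the left.

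The libraries held 11098400 to 30899045 counts each, with WT replicate 3 the smallest, and 3 counts corresponded to 0.10 to 0.270 CPM (counts-per-million values, scaled for depth with TMM). CDK12 itself was at 103, 125 and 117 CPM in WT and at 99.0, 93.0 and 102 CPM in KO. Its log2 fold change was -0.23 ± 0.06 (SE, edgeR, adjusted p = 8.20e-04). The edit lies in exon 1 and does not remove the gene, so this level does not check the knockout. The study checked it by sequencing and by western blot, which found no CDK12 protein in the clone. Of 9 genes listed as markers of epithelial ovarian carcinoma, PAX8, WT1, CDH1, KRT7 and MUC16 had at most 6 counts in any library. Of the 4 tested, KRT8 and KRT18 were higher in KO and EPCAM lower, with log2 fold changes of 0.56, 0.78 and -0.53. VIM, which encodes the mesenchymal filament vimentin and is not an epithelial gene, fell from 7235 ± 165 to 1489 ± 11.4 CPM (SD, n = 3). All 4 fibroblast markers fell, their sum going from 610 to 658 CPM in WT to 115 to 134 CPM in KO, and DCN and LUM had no count in KO. The 4 leukocyte markers together stayed at or below 0.328 CPM in every library. The 3 endothelial markers summed to 0.073 to 0.300 CPM in WT and to 0.674 to 0.892 CPM in KO. Most of this was VWF, with 2, 7 and 3 counts in WT and 18, 22 and 10 in KO. PECAM1 and CDH5 had at most 2 counts in any library. Both groups were cultures of the A2780 line, and no other cell type is described for any library. Whether these shifts bear on the ABC genes was not tested. In bulk RNA, fewer cells expressing a gene and less of its RNA per cell cannot be told apart.

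The 250 bases before the start of transcription are shown for ABCC2, the gene that rose, and for ABCA1 and ABCC6, which fell most among the genes whose window holds at most 30 exonic bases. They are RefSeq sequences of build GRCh38.p14, written 5′ to 3′ on the gene's strand, and capitals mark each CG dinucleotide.
ABCC2, chr10:99782390-99782639, plus strand: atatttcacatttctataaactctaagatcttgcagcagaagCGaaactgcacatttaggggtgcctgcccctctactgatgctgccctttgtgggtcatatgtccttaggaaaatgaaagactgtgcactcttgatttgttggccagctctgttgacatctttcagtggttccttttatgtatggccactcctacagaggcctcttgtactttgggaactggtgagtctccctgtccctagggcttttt
ABCA1, chr9:104928156-104928405, minus strand: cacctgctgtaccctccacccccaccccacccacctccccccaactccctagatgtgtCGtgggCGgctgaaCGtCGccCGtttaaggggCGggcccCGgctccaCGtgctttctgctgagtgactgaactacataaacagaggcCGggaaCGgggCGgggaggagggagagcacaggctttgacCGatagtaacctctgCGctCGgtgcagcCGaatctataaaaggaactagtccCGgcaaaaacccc
ABCC6, chr16:16223495-16223744, minus strand: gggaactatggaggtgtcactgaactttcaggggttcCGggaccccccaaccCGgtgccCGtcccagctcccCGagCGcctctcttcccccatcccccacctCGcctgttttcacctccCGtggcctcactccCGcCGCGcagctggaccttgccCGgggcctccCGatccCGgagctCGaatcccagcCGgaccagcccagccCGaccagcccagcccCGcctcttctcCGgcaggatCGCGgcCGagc

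The ABCC2 window holds 1 CG dinucleotide at a GC content of 45.6%, the ABCA1 window 16 at 61.6% and the ABCC6 window 21 at 70.8%. For ABCG2 the window before its reference start holds 32, and all of it is exonic in another annotated transcript. RefSeq windows were matched for 35 of the 45 ABC genes, 24 of them tested. The tested genes had a median GC content of 68.2% and a median of 22.5 CG dinucleotides, and the 11 untested genes 46.4% and 2. Over all 35116 windows these medians were 58.0% and 11. The GC box GGGCGG, searched on both strands, occurred in 42.6% of all windows, in 17 of the 24 tested ABC genes (70.8%) and in 1 of the 11 untested ones (9.1%). ABCA1 had 3 matches, and ABCC2, ABCC6 and ABCG2 had none. The TATA box TATAAA occurred in 10.7% of all windows, in 4 of the 24 tested ABC genes and, among the called genes with a window, in ABCA1 and ABCC2. ABCA3 and ABCG4, which also fell, had 38 and 19 CG dinucleotides. A match or its absence describes these letters only.

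Among the 11 drug efflux pump genes, 8 were tested, 1 rose and 2 fell, beside 8.30% and 7.73% of all tested genes. The 2 that fell had enough reads for testing in WT alone. ABCC2 encodes MRP2, which exports glutathione and glucuronide conjugates at apical membranes and is linked in the literature to platinum export. It lies on chromosome 10 (99782640 to 99852594, plus strand, GRCh38). Its level was 2.59, 2.84 and 2.25 CPM in the 3 WT libraries and 20.0, 19.5 and 19.7 CPM in the 3 KO libraries. All KO libraries were far above all WT libraries, and the spread within each group was small beside the difference. The means were 2.56 ± 0.294 and 19.7 ± 0.258 CPM (SD, n = 3), a 7.70-fold difference. The log2 fold change was 2.90 with a standard error of 0.11 (quasi-likelihood test of edgeR, Benjamini-Hochberg adjusted p = 1.39e-21). The deposited counts were 71, 85 and 25 in WT and 491, 524 and 351 in KO.

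ABCC6 encodes MRP6, a protein needed for ATP release from liver cells, and lies on chromosome 16 (16149565 to 16223522, minus strand). It had 68, 92 and 30 counts in WT and 0, 3 and 1 in KO. Every WT library was thus above every KO library, where the gene was at or under the counting floor of 3. The pooled counts of 190 and 4 gave a ratio of 48.1, WT over KO, with a 95% exact interval of 18.5 to 178 for counting error only. The fitted log2 fold change was -5.46 with a standard error of 0.39 (edgeR, adjusted p = 7.02e-14), and its size depends on the prior count. This standard error, taken from the test statistic, implies a narrower range than the exact interval. The fold change was -6.57 without KO replicate 2 and -4.87 without KO replicate 1, and the gene stayed called.

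ABCG2, the breast cancer resistance protein, exports many drugs, among them topoisomerase inhibitors, and also urate. The gene lies on chromosome 4 (88090150 to 88231628, minus strand). It had 30, 30 and 8 counts in WT and 2, 0 and 0 in KO. The gene was thus low in WT, at 0.939 ± 0.195 CPM, and at or under the counting floor in every KO library. The pooled counts of 68 and 2 gave a ratio of 34.4 with an exact interval of 9.17 to 289.9. The fitted log2 fold change was -4.86 with a standard error of 0.57 (edgeR, adjusted p = 7.70e-09). Here too the standard error implies a narrower range than the exact interval. The fold change was -7.49 without KO replicate 1, which holds both KO counts, and -4.23 without KO replicate 2, and the gene stayed called.

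The 4 most abundant pumps all stayed inside the fold threshold. ABCC1 encodes MRP1, an exporter of glutathione conjugates, leukotrienes and anthracyclines, and was at 93.0, 102 and 101 CPM in WT and at 87.0, 88.7 and 86.5 CPM in KO. Its groups did not overlap, and its log2 fold change was -0.17 ± 0.05 (SE, edgeR, adjusted p = 0.00376), inside the fold threshold. ABCC4 (MRP4), which exports cyclic nucleotides and nucleotide analogues, was at 46.1, 51.0 and 44.7 CPM in WT and at 42.8, 40.9 and 40.6 CPM in KO. This gave a log2 fold change of -0.20 ± 0.06 (SE, edgeR, adjusted p = 0.00486).

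ABCC5 (MRP5), another exporter of cyclic nucleotides and nucleotide analogues, went the other way. Its level was 59.1, 62.5 and 59.9 CPM in WT and 82.9, 83.7 and 79.4 CPM in KO. The groups were well apart, at a log2 fold change of 0.44 ± 0.05 (SE, edgeR, adjusted p = 8.56e-09). ABCC10 (MRP7), which exports taxanes among other drugs, was at 37.9, 39.1 and 38.7 CPM in WT and at 36.7, 35.3 and 36.5 CPM in KO. The groups did not overlap, but the difference of -0.09 ± 0.06 (log2, SE) did not pass the test (edgeR, adjusted p = 0.163). ABCC11 (MRP8) was at 0.766, 1.00 and 0.630 CPM in WT and at 0.895, 1.11 and 1.29 CPM in KO. Its groups overlapped, and its log2 fold change of 0.36 ± 0.26 (SE) did not pass the test (edgeR, adjusted p = 0.236).

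ABCB1, ABCC3 and ABCC12 had too few reads to be tested. ABCB1 (P-glycoprotein) had 9, 26 and 8 counts in WT and 2, 5 and 0 in KO. The groups did not overlap in CPM, and the pooled counts of 43 and 7 gave a ratio of 6.22, WT over KO, with an exact interval of 2.77 to 16.4 for counting error. ABCC3 (MRP3), a basolateral exporter of conjugates, ranged from 0.073 to 0.360 CPM in WT and from 0.203 to 0.225 CPM in KO, so its groups overlapped. ABCC12 (MRP9) had no count in WT and 2, 4 and 3 counts in KO, which is close to the floor.

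**Figure D2:**
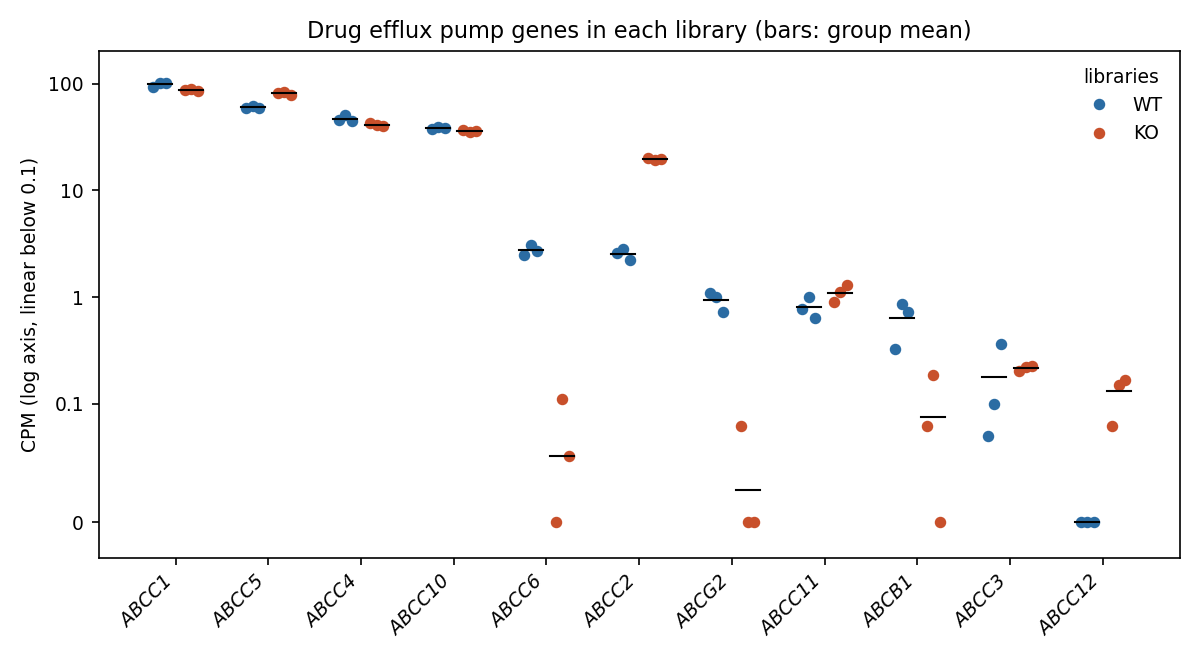
Level of the 11 drug efflux pump genes in each library, in CPM on a log axis that is linear below 0.1, with blue points for WT, orange points for KO and bars for the group means. ABCC2 moves from about the level of ABCC6 in WT to 19.7 CPM in KO, and ABCC6 and ABCG2 drop to 0 in at least 1 KO library.

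Added up per kilobase of exon length, the 11 pumps gave nearly the same total in both groups. The sum was 27.98 ± 1.16 CPM per kilobase in WT and 29.2 ± 0.338 in KO (SD, n = 3), and the lowest KO library lay below the highest WT library. Within that sum the makeup shifted. ABCC2 made up 1.17% ± 0.117 of the pump RNA in WT and 8.62% ± 0.132 in KO. ABCC1 remained the leading pump, with 40.4% ± 1.06 in WT and 34.3% ± 0.424 in KO. ABCC5 went from 19.0% ± 0.271 to 24.7% ± 0.442, and ABCC4 from 19.6% ± 0.857 to 16.4% ± 0.346. ABCC10 went from 17.1% ± 0.435 to 15.3% ± 0.397. ABCC6 and ABCG2 together were a minor share already in WT, with 1.42% ± 0.0942 and 0.60% ± 0.133, and were at 0.0277% and 0.0164% in KO. These shares were not tested.

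Of the 19 lipid and sterol transporter genes, 6 were tested and 3 of these fell, beside 7.73% of all tested genes. None rose by edgeR, voom/limma or DESeq2, although 2 were higher on the adjusted p alone, as at an unadjusted p under 0.05. ABCA1 loads cholesterol and phospholipid onto apolipoprotein A-I, the first step in forming HDL. It lies on chromosome 9 (104781006 to 104928155, minus strand). Its level was 22.0, 24.8 and 21.2 CPM in WT and 1.10, 1.34 and 1.35 CPM in KO. The KO level was 5.57% of the WT level, and no library came near the other group. The means were 22.7 ± 1.92 and 1.26 ± 0.141 CPM (SD, n = 3), and the log2 fold change was -4.18 with a standard error of 0.13 (edgeR, adjusted p = 4.13e-24).

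ABCA3 carries phospholipid into lamellar bodies, the organelles that store lung surfactant, and lies on chromosome 16 (2275881 to 2340746, minus strand). It was at 53.2, 59.7 and 54.9 CPM in WT and at 21.2, 21.8 and 20.6 CPM in KO. The groups were well separated, with the KO mean at 37.9% of the WT mean. The log2 fold change was -1.40 with a standard error of 0.06 (edgeR, adjusted p = 4.10e-19). ABCG4, a sterol exporter best known from brain, lies on chromosome 11 (119149052 to 119162653, plus strand). It was at 7.19, 7.04 and 7.38 CPM in WT and at 2.97, 3.16 and 2.36 CPM in KO. Its log2 fold change was -1.32 with a standard error of 0.13 (edgeR, adjusted p = 2.49e-10), and the groups did not overlap.

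The other tested lipid transporters passed the adjusted p but not the fold threshold. ABCA7, a phospholipid transporter and the most abundant of the group in WT, was at 165 ± 10.8 CPM in WT and 114 ± 5.01 CPM in KO (log2 fold change -0.52 ± 0.05, SE, edgeR, adjusted p = 2.37e-10). ABCA2 and ABCA5, which serve lysosomal lipid transport, were higher in KO. ABCA2 went from 112 ± 4.73 to 176 ± 11.5 CPM (log2 fold change 0.65 ± 0.05, SE, edgeR, adjusted p = 1.09e-12). ABCA5 went from 2.98 ± 0.192 to 4.92 ± 0.342 CPM (log2 fold change 0.71 ± 0.14, SE, edgeR, adjusted p = 4.47e-05). All 6 tested genes of this list had groups that did not overlap, against 66.4% of all tested genes. The summed level of the 19 genes per kilobase was 37.6 ± 0.906 CPM in WT and 31.02 ± 1.66 CPM in KO.

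**Figure D3:**
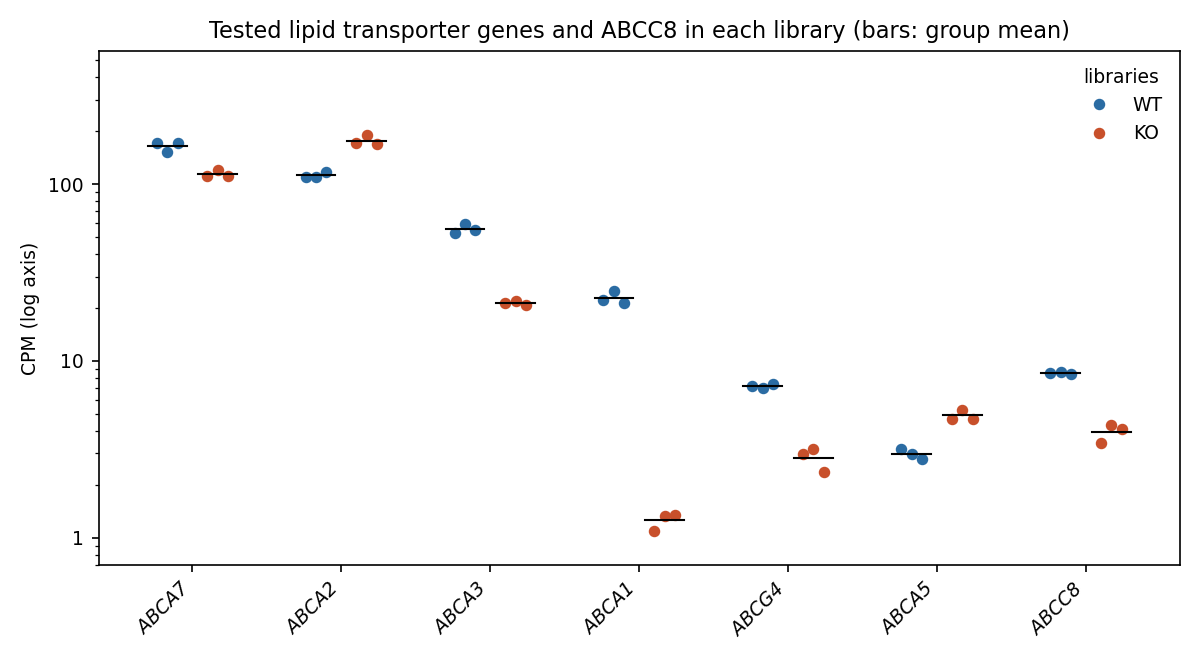
Level of the 6 tested lipid and sterol transporter genes and of ABCC8 in each library, in CPM on a log axis, with blue points for WT, orange points for KO and bars for the group means. ABCA1 drops from 22.7 to 1.26 CPM, and ABCA2 and ABCA5 are the genes in which the KO points are higher.

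ABCC8 encodes SUR1, the sulfonylurea receptor that regulates ATP-sensitive potassium channels in place of moving a substrate. It lies on chromosome 11 (17392498 to 17476894, minus strand). Its level was 8.54, 8.61 and 8.46 CPM in WT and 3.42, 4.35 and 4.10 CPM in KO. The groups were apart, and the log2 fold change was -1.11 with a standard error of 0.12 (edgeR, adjusted p = 1.02e-09). This lies close to the fold threshold, and in a test against a log2 fold change of 1 itself ABCC8 was not called (edgeR, adjusted p = 0.486). Under the other alternatives its adjusted p ran from 8.00e-19 to 4.53e-07. KCNJ11, which encodes the pore subunit Kir6.2 of the same channel and lies 3.17 kb from ABCC8, rose from 0.967 to 2.16 CPM (log2 fold change 1.31 ± 0.24, SE, edgeR, adjusted p = 1.85e-05). The related receptor gene ABCC9 had no count in any library, which allows up to 0.10 to 0.270 CPM by library.

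All 9 organelle transporters were tested, and none was called by edgeR, voom/limma or DESeq2. Their log2 fold changes ran from -0.64 to 0.20, with 1 higher and 3 lower on the adjusted p alone and the same numbers at an unadjusted p under 0.05. ABCB6, a porphyrin transporter, was the member with the largest difference, at 12.9 ± 0.573 CPM in WT and 8.19 ± 0.477 CPM in KO (log2 fold change -0.64 ± 0.09, SE, edgeR, adjusted p = 4.24e-07). ABCD3, a peroxisomal importer of branched-chain fatty acids, was also lower, at 64.4 ± 0.832 and 53.6 ± 0.70 CPM (log2 fold change -0.26 ± 0.05, SE, edgeR, adjusted p = 5.75e-05). ABCB9, a lysosomal peptide transporter, had a log2 fold change of 0.20 ± 0.07 (SE, edgeR, adjusted p = 0.0183), with overlapping groups.

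The mitochondrial inner membrane members ABCB8 and ABCB10 had log2 fold changes of 0.10 and 0.02, and neither passed the test. The same held for ABCD2 and ABCD4, at -0.28 and 0.06. Adjusted p-values of these 4 genes ran from 0.128 to 0.791 (edgeR), and their groups overlapped. The difference was thus within the spread between libraries for these genes. The summed level of the 9 organelle genes per kilobase was 50.1 ± 1.21 CPM in WT and 47.5 ± 0.440 CPM in KO.

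The 4 soluble ABC proteins were among the most abundant members, and none was called by edgeR, voom/limma or DESeq2. On the adjusted p alone, as at an unadjusted p under 0.05, 1 was higher and 2 were lower. ABCE1, which splits ribosomes for reuse, was at 224, 234 and 232 CPM in WT and at 199, 191 and 197 CPM in KO (log2 fold change -0.23 ± 0.05, SE, edgeR, adjusted p = 5.43e-05). ABCF1, which acts in translation initiation, went from 142 ± 4.86 to 115 ± 2.11 CPM (log2 fold change -0.30 ± 0.05, SE, edgeR, adjusted p = 2.65e-06). ABCF3 was higher in KO, at 62.5, 63.2 and 60.8 CPM in WT and at 88.9, 95.8 and 88.0 CPM in KO (log2 fold change 0.55 ± 0.05, SE, edgeR, adjusted p = 8.73e-11). ABCF2 stayed within its spread, with a log2 fold change of 0.03 ± 0.05 (SE, edgeR, adjusted p = 0.60). The genes of this group thus went in both directions, each by less than the fold threshold.

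The 17 untested ABC genes were at very low levels in both groups. ABCA13, ABCB11 and ABCC9 had no count in any library, and 14 of the 17 had at most 10 counts in every library. When all genes with at least 1 count were fitted, 5 of these 17 genes were called. ABCA12, which carries glucosylceramide in skin, had 2, 1 and 1 counts in WT and 11, 10 and 7 in KO (edgeR, adjusted p = 2.30e-04). ABCB5, known from skin and melanocytes, had 1, 0 and 0 counts in WT and 10, 8 and 7 in KO (edgeR, adjusted p = 1.38e-05). The lists used here count ABCB5 with the lipid and sterol transporters, so it is not in the totals for the drug efflux pumps. ABCC12 was the third gene called higher (edgeR, adjusted p = 0.0109).

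ABCB1 and ABCG1 were called lower in the fit without a filter. ABCB1 had a fitted log2 fold change of -2.58 (edgeR, adjusted p = 2.92e-06). ABCG1, which passes cholesterol to HDL, had 18, 20 and 3 counts in WT and 6, 7 and 5 in KO, and a fitted log2 fold change of -1.17 (edgeR, adjusted p = 0.0156). Its groups overlapped in CPM, since WT replicate 3 had 0.270 CPM and the KO libraries 0.244 to 0.281 CPM. Without a filter, 5.96% of 31569 genes were called higher and 5.33% lower. Together, 4 ABC genes were then higher and 8 lower.

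The remaining untested genes stayed uncalled there. They include ABCA4, known from photoreceptors, with no count in WT and 1 in each KO library, and the sterol exporters ABCG5 and ABCG8, with no count in KO. ABCB4, the phosphatidylcholine translocator of bile, was at 0.153 ± 0.024 CPM in WT and 0.272 ± 0.116 CPM in KO. The genes ABCA5, ABCA6, ABCA8, ABCA9 and ABCA10 form a cluster on chromosome 17, and ABCA5 was the member with enough reads to be tested. The other members of that cluster had at most 5 counts in any library.

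Levels of different genes were compared per kilobase of exon length. In WT the order was led by ABCE1 at 36.8, ABCF1 at 31.5, ABCF2 at 27.4, ABCB10 at 19.3 and ABCA7 at 17.2 CPM per kilobase. In KO it was led by ABCE1 at 31.3, ABCF2 at 28.1, ABCF1 at 25.7, ABCB10 at 19.5 and ABCF3 at 17.7. ABCF1 and ABCF2 thus changed places, and in each group their libraries did not overlap. ABCC2 went from place 23 of 28 at 0.327 ± 0.0375 CPM per kilobase to place 16 at 2.52 ± 0.0330. In KO its libraries lay just below those of ABCA3, at 2.71 ± 0.0735, without overlap.

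ABCA1 went from place 18 to 26, and ABCA3 from 10 to 15. ABCC6 and ABCG2 took the last places in KO, where ABCC11 had been last in WT. Of the 27 pairs of neighbours in the order, 8 overlapped between their libraries in WT and 9 in KO. In WT these included the run from ABCC6 through ABCC2, ABCC8 and ABCD2 to ABCA5, at 0.398 to 0.226 CPM per kilobase. The sum over all 45 genes was 224 ± 4.51 CPM per kilobase in WT and 211 ± 2.62 in KO, and no KO library reached the lowest WT library.

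**Figure D4:**
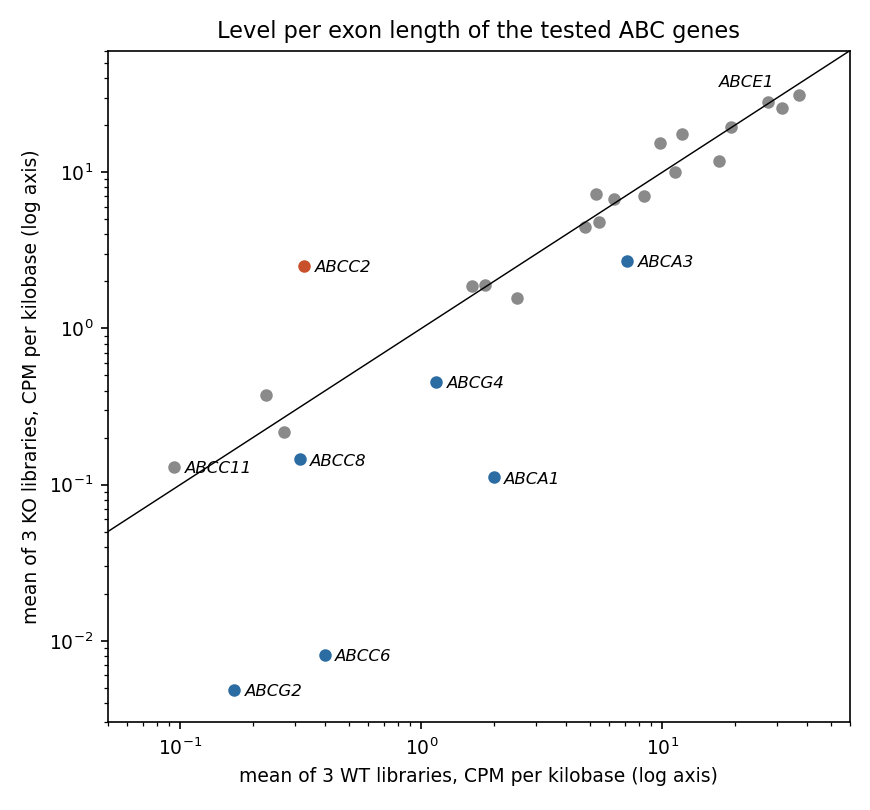
Mean level per exon length of 26 of the 28 tested ABC genes in WT (horizontal) and KO (vertical), in CPM per kilobase on log axes, with equal levels on the diagonal line, orange for ABCC2 and blue for the 6 genes that fell. Most genes lie along the line over the whole range of levels, from ABCC11 to ABCE1, and ABCC2 lies above it.

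The genes on either side of the 7 called ABC genes were also read. For ABCC2, the neighbours COX15 and DNMBP had log2 fold changes of 0.57 and 0.37 and were not called. Both were higher in KO on the adjusted p alone (edgeR, adjusted p = 1.09e-10 and 6.56e-05). For ABCA1, NIPSNAP3B at a distance of 3.24 kb had 0.31, and SLC44A1 at 316 kb fell, with -1.02 ± 0.05 (SE, edgeR, adjusted p = 1.57e-18). ABCC6 lies 6.31 kb from ABCC1, which had -0.17, while XYLT1 on its other side rose, from 2, 6 and 0 counts in WT to 33, 27 and 20 in KO. Both neighbours of ABCC8 rose, KCNJ11 by 1.31 and KCNC1 by 1.40 on the log2 scale. The neighbours of ABCA3 (RNPS1 and CCNF), ABCG2 (PKD2 and PPM1K) and ABCG4 (HINFP and NLRX1) were not called, with log2 fold changes from -0.72 to 0.16. On the adjusted p alone, RNPS1, PKD2 and PPM1K were lower in KO, like the ABC gene beside them, and CCNF, HINFP and NLRX1 did not pass. Hence 4 of the 14 neighbours were called, beside 16.0% of all tested genes called in either direction, and 1 of these 4 moved in the direction of its ABC gene.

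Some ABC genes share their position with another gene. ABCC11 overlaps LONP2 on the opposite strand, and LONP2 had 913 to 2628 counts against 7 to 30 for ABCC11. ABCC10 overlaps DLK2, also on the opposite strand, and DLK2 fell from 135 to 160 counts in the deeper WT libraries and 48 in WT replicate 3 to 11 to 17 counts in KO (log2 fold change -2.93, edgeR, adjusted p = 3.26e-14). ABCA3, ABCB9 and ABCE1 likewise have an overlapping gene with counts on the other strand, none of them called, and ABCD4 has one on its own strand. The library kit keeps the strand of the RNA, but the strand setting used in counting is not given in the sources used here, so reads of such pairs may be mixed. ABCC6 has the near-identical copies ABCC6P1 and ABCC6P2, which had 1 count and 0 counts over all libraries. Of 18 ABC-named loci that are not protein coding, 15 had at most 3 counts in every library and 3 were tested, and none of the 3 was called.

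Genes that work beside the ABC pumps were read from fixed lists. TAP1 and TAP2, the ABC proteins that carry peptides for antigen presentation, had log2 fold changes of 0.10 and -0.58, and CFTR had at most 2 counts in any library. Neither TAP gene was called by edgeR, voom/limma or DESeq2. TAP2 was lower on the adjusted p alone (edgeR, adjusted p = 2.03e-08) and stayed inside the fold threshold. Of 11 genes for platinum and copper handling, 9 were tested and 0 called by these 3 tools. On the adjusted p alone, as at an unadjusted p under 0.05, 1 was higher and 3 were lower. ATP7B, a copper-exporting ATPase linked to platinum resistance, was at 22.2 ± 1.69 CPM in WT and 13.8 ± 0.423 CPM in KO (log2 fold change -0.68 ± 0.08, SE, edgeR, adjusted p = 4.75e-09). The copper importer SLC31A1 had a log2 fold change of 0.06 (edgeR, adjusted p = 0.341).

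Of 23 solute carriers that move drugs, 10 were tested and 2 rose, beside 8.30% of all tested genes. None fell by edgeR, voom/limma or DESeq2, and 3 were lower on the adjusted p alone, as at an unadjusted p under 0.05. The organic cation transporter SLC22A4 went from 0.922 ± 0.199 to 2.33 ± 0.466 CPM (log2 fold change 1.32 ± 0.23, SE, edgeR, adjusted p = 7.32e-06). The organic anion transporter SLCO3A1 went from 4.91 ± 0.312 to 11.1 ± 0.865 CPM (log2 fold change 1.19 ± 0.11, SE, edgeR, adjusted p = 2.76e-11). SLC29A1, the nucleoside transporter ENT1 that takes up gemcitabine and cytarabine, was at 77.7 ± 4.76 CPM in WT and 40.3 ± 2.52 CPM in KO. Its log2 fold change of -0.95 ± 0.06 (SE, edgeR, adjusted p = 1.74e-15) stayed just inside the fold threshold.

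Of 18 genes for the supply and use of glutathione, which the ABCC pumps export with their substrates, 17 were tested, 1 rose and 1 fell, shares below the 8.30% and 7.73% of all tested genes. SLC7A11, the cystine importer that feeds glutathione synthesis, was at 29.4, 25.9 and 26.3 CPM in WT and at 129, 99.8 and 155 CPM in KO. The KO libraries differed among themselves but were all above WT, at a log2 fold change of 2.22 ± 0.09 (SE, edgeR, adjusted p = 6.76e-20). MGST1, a microsomal glutathione transferase, had 238, 274 and 84 counts in WT and 1, 0 and 0 in KO. The pooled ratio was 603, WT over KO, with an exact interval of 108 to 23866 for counting error, since it rests on 1 KO count (edgeR, adjusted p = 7.18e-21). The other 15 tested genes of the list stayed inside the fold threshold, and the median of all 17 was 0.0084 on the log2 scale.

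Of 20 regulators of ABC genes, 16 were tested, 1 rose and 2 fell, beside 8.30% and 7.73% of all tested genes. SP1, which binds GC boxes, was at 140 ± 3.27 CPM in WT and 347 ± 25.1 CPM in KO (log2 fold change 1.31 ± 0.05, SE, edgeR, adjusted p = 1.10e-20). PPARG fell, at 5.49 ± 0.563 and 2.26 ± 0.211 CPM (log2 fold change -1.30 ± 0.15, SE, edgeR, adjusted p = 2.89e-09), and HIF1A fell, at 109 ± 7.21 and 52.7 ± 1.11 CPM (log2 fold change -1.06 ± 0.05, SE, edgeR, adjusted p = 1.29e-17). The LXR genes NR1H2 and NR1H3, whose products are known to activate ABCA1, had log2 fold changes of 0.42 and 0.57, and their partner RXRA -0.38. NFE2L2, which encodes the stress factor NRF2, had 0.76 ± 0.05 (SE, edgeR, adjusted p = 2.53e-15). The xenobiotic receptors NR1I2 and NR1I3 had at most 2 counts in any library. Whether any regulator bears on an ABC gene was not tested.

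**Figure D5:**
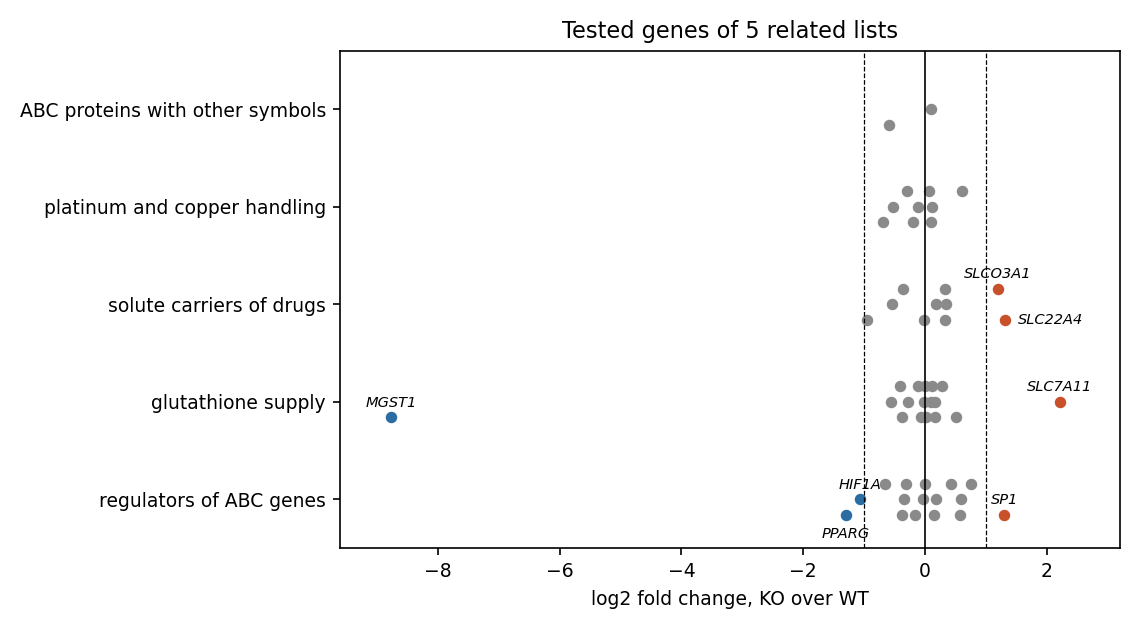
Log2 fold change, KO over WT, of the tested genes in 5 related lists, with each point 1 gene and dashed lines at -1 and 1. Orange points rose and blue points fell past both thresholds, with SLC7A11 at 2.22 on the right and MGST1 far to the left, while all 9 tested genes for platinum and copper handling lie between the lines.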

How the data were processed

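Raw counts per gene were deposited by the authors for 6 libraries of A2780 cells, 3 WT and 3 CDK12 KO, grouped by the genotype in the labels. The authors checked the reads with FastQC, aligned them with STAR to GRCh38 and counted them with HTSeq; versions, annotation and the strand setting are not given in the sources used here. Identifiers were matched without version to GENCODE release 44 (56321 genes, 93.1%), which gave symbols, positions and exon lengths.

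All genes passing filterByExpr (minimum count 10, minimum total 15) were fitted in edgeR 4.0.16 under R 4.3.3 with TMM scaling and the two-sided quasi-likelihood test, with Benjamini-Hochberg adjustment over 16198 genes. The biological coefficient of variation was 4.35%. Standard errors were the absolute log2 fold change divided by the square root of the test's F statistic. For genes with few counts they can be too small. Calls used the thresholds of the study's methods, which name voom/limma. Tests were checked on simulated counts. Library totals were 11098400 to 30899045 counts, and CPM used these totals scaled with TMM. Reads carried no molecular identifiers, so floors of 3 counts and 95% conditional binomial intervals cover counting error only.

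Named are all ABC genes (every library for called genes and pumps), genes of the other lists past both thresholds with a few defining ones, and the nearest tested protein-coding genes beside each called ABC gene. A few genes are not reported here by name. The members and lists were chosen with earlier results of these data known. Alternatives were voom/limma 3.58.1, DESeq2 1.42.0, median-of-ratios and upper-quartile scaling, other filters and call rules, thinned libraries, leaving out each library, and transcript length. Tables were made in Python 3.11.15 (pandas 2.3.3, numpy 2.4.6, scipy 1.17.1).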

Additional observations from a re-analysis of the deposited data

How the results depend on the processing

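The 7 called ABC genes kept direction and call in 101 of 102 comparisons with an alternative, the exception being ABCC8 in the test against the fold threshold. The adjusted p alone is among these alternatives and reuses the main fit with a looser rule, so no called gene could be lost there. ABCC6 and ABCG2 were not tested with at least 10 counts in every library, nor ABCG2 in thinned libraries, and these cases are not among the 102. The number of ABC genes called higher was 4 without a filter, 6 on the adjusted p alone and 1 to 3 when a library was left out; without WT replicate 3 it was 3, with ABCA12 and ABCB5 added, and without KO replicate 1 or KO replicate 3 it was 2, with ABCA12 added. The number called lower was 14 on the adjusted p alone and 6 to 8 when a library was left out, with ABCB1 or ABCG1 added. With a library left out, 28 to 31 ABC genes were tested, and the genes added there were not tested in the main fit. Over all genes, 1345 were called higher and 1252 lower. With at least 10 counts in every library these numbers were 568 and 684, fewer genes being tested, and on the adjusted p alone 5165 and 5188. Against the fold threshold 756 were higher. When a library was left out, 3 uncalled genes changed sign: ABCB10 ranged from -0.036 (without WT replicate 1; -0.0048 without KO replicate 1) to 0.050, ABCD4 from -0.050 (without WT replicate 2) to 0.13 and ABCF2 from -0.015 (without WT replicate 3) to 0.090 on the log2 scale. With transcript length in place of exon length, 4 of the 5 leading genes stayed among the first 5 in WT and in KO, and ABCC2 took place 24 in WT and 17 in KO. No paired analysis was possible because the labels give WT and KO libraries no shared numbers. The low counts of ABCC6, ABCG2 and the untested genes limit the precision of their folds.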
